A study of Mus musculus with 6 samples.

Results

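The 9 genes described here are those of polyamine synthesis and breakdown: Odc1, Amd1, Sms, Srm, Smox, Sat1, Azin1, Oaz1 and Oaz2. They were taken by gene symbol from the deposited table, which lists 16759 genes, and all 9 had a row. The samples were 3 hind leg muscle libraries of exercise (EX) mice and 3 of control (Con) mice. All mice were male C57BL/6J animals that were 8 weeks old when the experiment began. Each RNA library was taken to be 1 mouse, as the paper does not give the number of mice per library. EX mice had 6 weeks of treadmill running, with 60 min per session and 5 sessions weekly, covered 22 km each, and were killed 24 h after the final session, whereas Con mice had no treadmill training. No genetic change is named for either group. The description of the tissue does not separate the muscles of the leg, each library came from a small piece, and fat between muscles was taken off. Library totals ran from 13845362 counts (Con replicate 1) to 16240431 counts (EX replicate 2).

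Polyamines are small positively charged molecules that bind nucleic acids and are needed for growth and protein synthesis. Ornithine decarboxylase (Odc1) makes putrescine from ornithine, S-adenosylmethionine decarboxylase (Amd1) makes the donor of aminopropyl groups, and spermidine synthase (Srm) and spermine synthase (Sms) use that donor to build spermidine and spermine in turn. Spermine oxidase (Smox) turns spermine back into spermidine, and spermidine/spermine N1-acetyltransferase (Sat1) acetylates both so that they can be broken down or exported. Antizymes (Oaz1, Oaz2) bind ornithine decarboxylase and send it to the proteasome, and the antizyme inhibitor (Azin1), a relative of the decarboxylase without its activity, takes antizyme away from it. In skeletal muscle, Smox is known to be lowered in wasting.

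Amd1 was the only one of the 9 genes with counts that were not whole, and its sequence is shown because it decides how its reads can be assigned. Mice carry a near-identical copy, Amd2. In the GENCODE M21 annotation (GRCm38), the transcript Amd1-201 has 8 exons and 3204 bases and Amd2-201 has 1 exon and 3218 bases. Over 3204 aligned bases the transcripts differed at 14, an identity of 99.56%, and within the coding sequence of 1002 bases they differed at 1, G796C, counted from the A of the start codon with the base of Amd1 first. The bases around that position are given here with the differing base in capitals.
Amd1: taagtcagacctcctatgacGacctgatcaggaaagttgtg
Amd2: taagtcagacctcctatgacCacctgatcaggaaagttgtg
Of the windows of 150 bases, the length of 1 read, 61.9% in Amd1-201 were also present without change in Amd2-201. The estimated counts of Amd1 and of Amd2 were not whole in any of the 6 libraries (100% of values for each), but the sum of both was whole in all 6 libraries, within 0.005 of a count. The other 8 genes had whole counts in every library (0% of values not whole).

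Short regulatory sequences of the family are shown next, because the amounts of the encoded proteins are known to be set at them during translation, a step that counts of transcripts do not measure. Amd1 and Amd2 share an upstream open reading frame of 21 bases in the leader, with its start and stop codons in capitals.
Amd1: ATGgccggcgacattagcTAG
Antizyme transcripts hold a stop codon at which ribosomes shift frame when polyamines are plentiful. That codon is in capitals in the following stretches of 36 bases from 1 annotated transcript of each gene, of which 33 bases were identical.
Oaz1: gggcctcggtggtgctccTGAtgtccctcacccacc
Oaz2: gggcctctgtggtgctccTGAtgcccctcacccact

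For the genes whose transcripts were most clearly higher in EX and for Amd2, the 250 bases before the start are printed from the RefSeq promoter table (GRCm38.p6). Of the 9 genes, 7 had entries there, with 8 promoters among them. Srm and Azin1 had none. Capitals mark the E-box CACGTG, the site bound by MYC and related factors, and TATAA within the last 50 bases. Both strands were searched for CACGTG and for the cAMP response element TGACGTCA, and the given strand for TATAA.
Amd1 upstream bases, chr10:40302189-40302438 (- strand, GRCm38.p6): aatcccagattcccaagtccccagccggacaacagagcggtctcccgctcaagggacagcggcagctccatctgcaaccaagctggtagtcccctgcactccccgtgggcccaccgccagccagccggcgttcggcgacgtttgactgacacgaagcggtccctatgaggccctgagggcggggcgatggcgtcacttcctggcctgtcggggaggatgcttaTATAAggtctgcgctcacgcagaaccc
Amd2 upstream bases, chr10:35711892-35712141 (- strand, GRCm38.p6): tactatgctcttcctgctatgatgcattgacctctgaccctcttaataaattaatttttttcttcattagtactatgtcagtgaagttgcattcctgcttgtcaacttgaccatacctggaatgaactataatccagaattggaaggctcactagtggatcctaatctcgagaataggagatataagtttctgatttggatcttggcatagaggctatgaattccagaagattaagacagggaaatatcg
Smox upstream bases, chr2:131491612-131491861 (+ strand, GRCm38.p6): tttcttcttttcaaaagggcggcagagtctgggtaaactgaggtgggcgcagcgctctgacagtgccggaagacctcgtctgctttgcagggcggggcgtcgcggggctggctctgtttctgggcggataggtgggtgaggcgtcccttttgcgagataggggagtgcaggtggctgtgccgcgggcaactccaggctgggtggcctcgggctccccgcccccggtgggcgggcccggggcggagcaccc
Sms upstream bases, chrX:157492288-157492537 (- strand, GRCm38.p6): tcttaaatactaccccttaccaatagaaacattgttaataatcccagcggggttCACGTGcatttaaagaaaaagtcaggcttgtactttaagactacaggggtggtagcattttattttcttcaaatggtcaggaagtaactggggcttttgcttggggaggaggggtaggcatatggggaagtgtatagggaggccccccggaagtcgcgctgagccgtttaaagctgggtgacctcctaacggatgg
An E-box was found in 1 of the 8 promoters, the first of a pair listed for Sms, against 6.02% of all 32851 promoters in the table. The second promoter of Sms held none and is not printed. Its content of G and C was 75.2%, against 47.2% for the first. Which of the pair is used in muscle was not tested, and bases beyond the 250 were not searched. The cAMP response element was in 0 of the 8 and in 1.55% of all promoters. TATAA near the start was in 1 of the 8, that of Amd1 at 27 bases before the start, and in 4.93% of all promoters. As TATAA was chosen after the sequences were seen, these shares are no test. Amd2 gave no match in any of the 3 searches, and the content of G and C in its upstream bases was 37.6%, against 64.4% for Amd1.

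Compared per transcript length, as FPKM (fragments scaled to gene length and library size, the authors' values), the 9 genes covered a wide range of levels. Amd1 was the most abundant in Con, at 918 ± 50.7 FPKM (SD, n = 3), followed by Smox at 515 ± 7.11 and Oaz1 at 476 ± 11.01. Odc1 followed at 131 ± 8.69 FPKM and Oaz2 at 104 ± 6.98, then Sms at 47.9 ± 1.96. Sat1 at 25.2 ± 1.65 FPKM and Azin1 at 23.0 ± 1.95 were neighbours whose values overlapped, and Srm was lowest at 8.09 ± 0.815. The order was the same in EX, where Amd1 reached 1163 ± 35.1 FPKM and Smox 690.1 ± 7.17, and Sat1 and Azin1 were again the only neighbours that overlapped. The enzyme that makes the aminopropyl donor and the oxidase of spermine were thus far above the synthases that use the donor, at the level of transcripts. Counts behind these values ran from 110 to 128 per library for Srm and from 34313.83 to 55589.65 for Amd1. Counting error alone is 9.53% of the lowest count of Srm and 0.54% of that of Amd1.

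**Figure D1:**
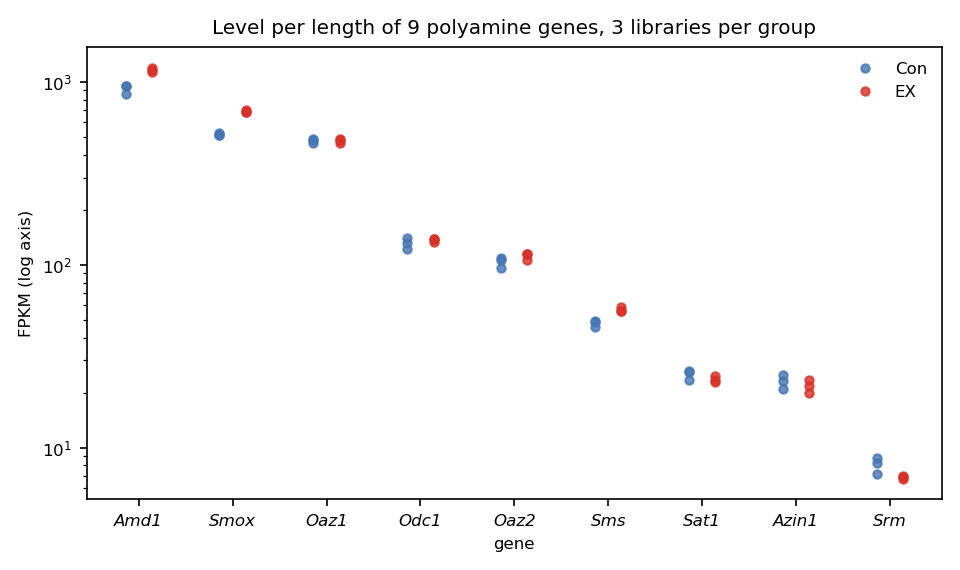
FPKM of the 9 genes on a log axis, ordered by their mean in Con, with 1 point per library (Con blue, EX red, 3 libraries each). Amd1 and Smox lead in both groups, Srm is lowest, and the points of Sat1 and Azin1 overlap.

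Levels between groups were compared in CPM (estimated counts after TMM scaling, per library size) with edgeR's quasi-likelihood test and Benjamini-Hochberg adjustment over the 10883 genes whose mean FPKM reached 1. All 9 genes passed that filter. Amd1, Smox, Sms and Oaz2 rose in EX, and none of the 9 fell. These 4 of 9 stand beside 17.9% of all genes tested that were called in either direction, 9.11% called higher and 8.8% called lower. The median log2 fold change of the 9 genes was 0.11, beside -0.00093 for all genes tested. CPM values of EX and Con did not overlap for 5 of the 9 genes, which adds Odc1 to those named, and for 33.7% of all genes tested. In the authors' FPKM the groups did not overlap for 4 of the 9, Amd1, Sms and Smox with higher values in EX and Srm with lower ones, and for 34.9% of all genes tested, while Odc1 and Oaz2 overlapped. In bulk muscle, more cells of a type and more RNA per cell cannot be told apart. Other scaling factors in edgeR left the split of calls near even, at 994 higher and 954 lower with median ratios and 967 and 963 with upper quartiles. Like TMM, they centre the typical gene near no change (median log2 fold changes -0.00064 and -0.0024), so they cannot decide how even the split is. Limma on TPM, which changes the test and the measure, gave 340 higher and 1684 lower over all genes, with Amd1, Smox and Sms higher and Srm lower among the 9. In edgeR with library totals without the 20 most abundant genes, 772 were higher and 1259 lower, with the same 4 of the 9 higher.

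**Figure D2:**
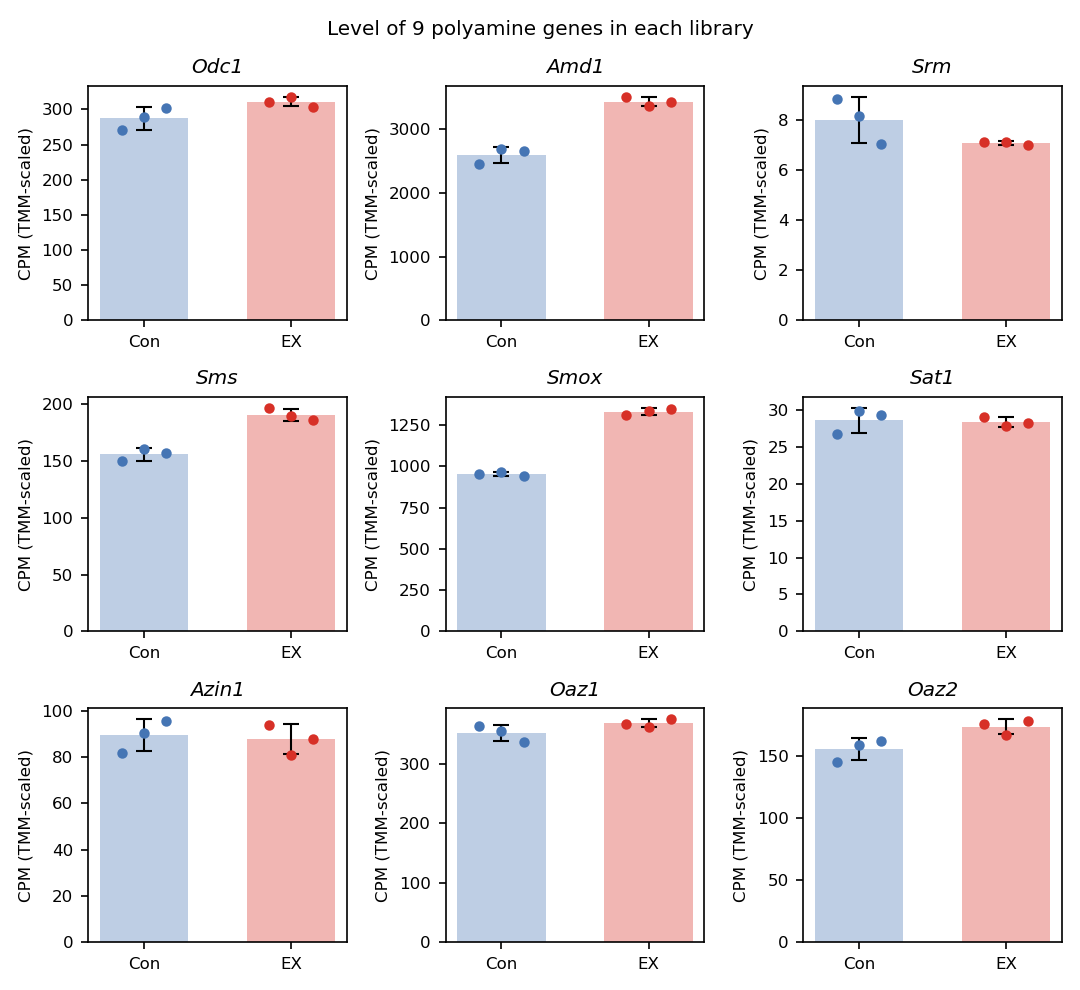
CPM of each gene in Con (blue) and EX (red), where points are libraries, bars are means and error bars are the SD of 3 libraries. For Amd1, Smox and Sms every EX point lies well above every Con point, while the points of Sat1, Azin1, Oaz1 and Srm overlap between groups.

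Among the enzymes of synthesis, Amd1 (gene 11702) had 2461, 2686 and 2659.9 CPM in Con replicates 1 to 3 and 3506, 3361 and 3431 in EX replicates 1 to 3. All EX libraries were above all Con libraries, and the mean was 31.9% higher. On the log2 scale EX exceeded Con by 0.40 ± 0.03 (standard error; adjusted p = 1.7e-09, edgeR). Summed with Amd2 as a single gene, a value that does not depend on how reads are split between the copies, Con had 2682 ± 130.0 CPM (SD, n = 3) and EX 3533 ± 75.0, a log2 difference of 0.40 (adjusted p = 2.0e-09, edgeR). Amd2 took between 2.71% and 3.10% of that sum in each library, so its own change of 0.34 (adjusted p = 1.1e-04, edgeR) rests on a small and uncertain share of the reads.

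Sms (gene 20603), the synthase of spermine, had 149.8, 161 and 157 CPM in Con and 196, 189 and 186 in EX. Again all EX libraries lay above all Con libraries, by 22.3% on average, or 0.29 ± 0.04 in log2 units (adjusted p = 5.6e-06, edgeR). Srm (gene 20810), the synthase of spermidine, had 8.82, 8.14 and 7.02 CPM in Con and 7.13, 7.13 and 6.99 in EX. In CPM the groups overlapped, with Con replicate 3 among the EX values, but in FPKM the Con values of 8.82, 8.23 and 7.21 were all above the EX values of 7, 6.87 and 6.78. The log2 fold change of Srm was -0.17, with a 95% interval from -0.41 to 0.07 (adjusted p = 0.348, edgeR), and with limma on TPM it was -0.26 (adjusted p = 0.0497, limma). Leaving out Con replicate 1 gave -0.10 and leaving out Con replicate 3 gave -0.26, neither past the threshold (adjusted p = 0.662 and 0.175, edgeR).

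Odc1 (gene 18263), the enzyme of the first step, had 271, 289.6 and 302.5 CPM in Con and 311, 317 and 304.1 in EX. The lowest EX value, that of replicate 3, was just above the highest Con value, also of replicate 3, and in FPKM that Con library, at 139, was above all EX libraries. Its log2 fold change was 0.11 (standard error 0.04, 95% interval 0.03 to 0.19), and the adjusted p of 0.0522 (edgeR) missed the threshold. Without Con replicate 3, the highest of the Con libraries, the value was 0.15 (adjusted p = 0.0130, edgeR), without Con replicate 1, the lowest, it was 0.07 (adjusted p = 0.2245, edgeR), and with limma on TPM it was 0.02 (adjusted p = 0.784, limma). The size for Odc1 was below those of Amd1 and Sms under the main test.

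Of the enzymes of breakdown, Smox (gene 228608) had 952, 965 and 944 CPM in Con and 1309, 1338 and 1349 in EX. The EX libraries were all above the Con libraries, with a mean 39.7% higher, and the log2 difference of 0.48 ± 0.03 (standard error; adjusted p = 8.3e-12, edgeR) was the largest of the 9 genes in the main test. Ranked from the largest increase, Smox was at place 198 and Amd1 at place 288 of the 10883 genes tested. Sat1 (gene 20229), the acetyltransferase, had 26.7, 29.8 and 29.2 CPM in Con and 29.1, 27.8 and 28.2 in EX. The EX values lay within the range of the Con values. Its log2 fold change was -0.01 (95% interval -0.14 to 0.12, adjusted p = 0.92, edgeR), and the sign turned when Con replicate 2, Con replicate 3 or EX replicate 2 was left out.

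Among the regulators of ornithine decarboxylase, Oaz2 (gene 18247) had 145, 159 and 162 CPM in Con and 176, 167 and 178 in EX. The groups did not overlap in CPM, although in FPKM Con replicate 3, at 109, was above EX replicate 2, at 106.0, and EX exceeded Con by 0.16 ± 0.04 in log2 units (adjusted p = 0.0108, edgeR). This call was lost without Con replicate 1, the lowest library, at 0.11 (adjusted p = 0.0526, edgeR), without EX replicate 3 at 0.14 (adjusted p = 0.0823, edgeR), and with limma on log2(FPKM + 0.1) at 0.10 (adjusted p = 0.243, limma). Oaz1 (gene 18245), the more abundant antizyme, had 363, 355 and 337 CPM in Con and 367, 362 and 375 in EX. The EX value of replicate 2 lay below Con replicate 1. Its log2 fold change was 0.07 (95% interval -0.01 to 0.14, adjusted p = 0.243, edgeR) and -0.03 with limma on TPM, and without Con replicate 3 it was 0.03 (adjusted p = 0.631, edgeR).

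Azin1 (gene 54375), the antizyme inhibitor, had 81.9, 90.5 and 95.7 CPM in Con and 93.9, 81.0 and 87.8 in EX. Both groups covered much the same range. A log2 fold change of -0.03 (95% interval -0.14 to 0.08, adjusted p = 0.744, edgeR) was found, and its sign turned without Con replicate 3 or without EX replicate 2.

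**Figure D3:**
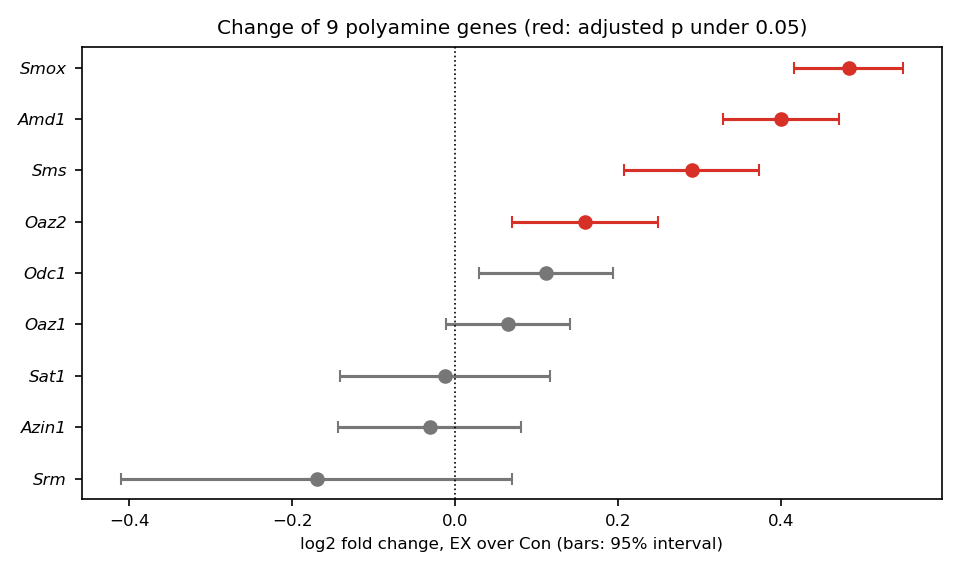
Log2 fold change of EX over Con for each gene, with bars for the 95% interval of edgeR's fit and red for an adjusted p-value under 0.05. Smox at 0.48, Amd1 at 0.40, Sms at 0.29 and Oaz2 at 0.16 are red, and Odc1 at 0.11 is not.

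Markers of cell types that muscle holds also differed between the groups. Fibre genes common to all muscle (Ckm, Acta1, Mb, Des) summed to between 63551 and 69430.4 CPM in Con and between 70459 and 75285 in EX, so the tissue was muscle by its defining genes, and 1 of the 4 was called higher and 1 lower. Of 6 fast fibre genes, 3 were called higher and 1 lower, with sums from 101266 to 102033 CPM in Con and from 107709 to 111754 in EX. All 6 slow fibre genes were higher, with sums from 45.5 to 50.8 CPM in Con and from 229 to 258 in EX. Most of the Con sum was Myl3, at 41.1 to 44.6 CPM, which was 0.40 higher in log2, while the median of the 6 genes was 4.55 higher. Macrophage genes were higher for 5 of 6 tested, and all 8 listed summed to 41.3 to 45.1 CPM in Con and 72.0 to 77.3 in EX. Tendon and fibroblast genes were higher for 4 of 6 (394 to 399 and 589 to 607). Adipocyte genes were higher for 3 of 4 tested, Adipoq, Cidec and Cfd, by 1.19 to 1.502 in log2, while the sum of all 6 listed (229.7 to 249 CPM in Con, 246 to 254 in EX) was mostly Fabp4, which had 216 to 235 CPM in Con and 211 to 218 in EX and was not called. Endothelial genes were lower for 4 of 6 (707 to 720.3 CPM in Con, 604 to 627 in EX) and Schwann cell genes for 3 of 4 (95.9 to 106 and 73.7 to 79.4), while 1 of 4 red cell genes was higher (237 to 263 and 260.1 to 286). No listed marker was at 0 in all libraries. The part of these cell types in the changes of the polyamine genes was not tested.

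Ratios of 2 genes within a library do not depend on the scaling between libraries. On the log2 FPKM scale, 5 were compared by a two-sided exact permutation test, which cannot go below p = 0.1 with 3 libraries against 3. Smox over Sat1, the oxidase over the acetyltransferase, was 4.45, 4.32 and 4.30 in Con and 4.80, 4.86 and 4.93 in EX, with no overlap (exact permutation p = 0.1, adjusted over 5 ratios 0.167). Srm over Sms was -2.37, -2.58 and -2.76 in Con and -3.07, -3.02 and -3.04 in EX, again with no overlap (exact permutation p = 0.1, adjusted 0.167). Azin1 over Odc1 averaged -2.51 ± 0.03 (SD, n = 3) in Con and -2.66 ± 0.12 in EX, and these values too did not overlap (exact permutation p = 0.1, adjusted 0.167). Its difference of -0.14 shrank to -0.07 without EX replicate 2. In contrast, Odc1 over Oaz1 overlapped, at -1.86 ± 0.13 in Con and -1.81 ± 0.05 in EX (exact permutation p = 0.7), and its difference of 0.05 turned to -0.01 without Con replicate 1. Oaz1 over Oaz2 overlapped as well, at 2.20 ± 0.13 in Con and 2.10 ± 0.03 in EX (exact permutation p = 0.3, adjusted 0.375), and its difference of -0.10 was -0.03 without Con replicate 1 and -0.16 without Con replicate 3.

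**Figure D4:**
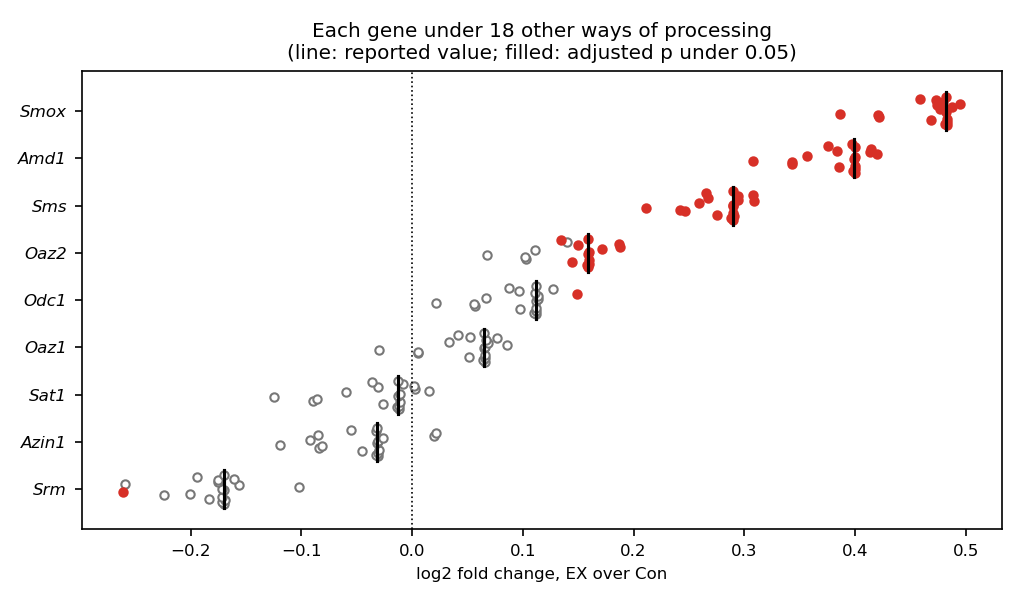
Log2 fold change of each gene under 18 other ways of processing the same table, with a line at the reported value and filled points for an adjusted p-value under 0.05. All 18 points of Smox, Amd1 and Sms are filled, 13 of 18 are filled for Oaz2, and 1 of 18 for Odc1 and for Srm.

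Other genes of the pathway were taken from a list of 33 symbols, of which 32 were in the table and 24 passed the filter. Mat2a, Amd2, Eif5a and Oat rose, none fell, and 20 did not pass the test, beside the 17.9% of all genes tested that were called. The median log2 fold change of the 24 was 0.05. With Amd2 summed into Amd1, 3 of 23 were called and the median was 0.00071. Mat2a, which makes the S-adenosylmethionine used by Amd1, rose from 419 ± 18.5 (SD, n = 3) to 515 ± 16.8 CPM, 0.30 higher in log2 (adjusted p = 1.2e-06, edgeR), and passed under all 18 alternatives. Eif5a, the translation factor modified with a residue made from spermidine, rose from 278 ± 14.5 to 320.2 ± 12.2 CPM (log2 fold change 0.20, adjusted p = 6.5e-04, edgeR) and passed under 15 of 18. Oat, which links ornithine to glutamate and proline, went from 262 ± 9.35 to 285 ± 5.64 CPM (0.12, adjusted p = 0.0224, edgeR) and passed under 10 of 18. Amd2 passed under 15 of 17, and its call was lost with limma on log2(FPKM + 0.1) (adjusted p = 0.0508, limma) and on TPM (adjusted p = 0.0646, limma).

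Several relatives of the 9 genes were scarce in this muscle. Paox, the oxidase of acetylated polyamines, had 4.01 ± 0.357 CPM in Con and 3.89 ± 0.951 in EX (adjusted p = 0.891, edgeR). Sat2 had 4.33 ± 0.875 CPM in Con and 4.06 ± 0.348 in EX (adjusted p = 0.716, edgeR). Azin2 had 1.57 ± 0.197 CPM in Con and 1.92 ± 0.268 in EX (adjusted p = 0.417, edgeR), and Oaz3, the antizyme of the testis, had 0 or 1 count in each library. None of the 6 transport genes tested passed the threshold, and neither did the enzymes of the hypusine branch, Dhps and Dohh, that modify Eif5a.

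Of the factors known to act on these genes, Myc rose from 7.94 ± 0.647 (SD, n = 3) to 10.2 ± 0.850 CPM (0.36, adjusted p = 0.0212, edgeR), but it passed under 9 of 17 alternatives. Zfp36, a protein that promotes decay of short-lived transcripts, fell from 21.9 ± 0.654 to 16.5 ± 1.74 CPM (-0.42, adjusted p = 2.9e-04, edgeR). Max, Ppargc1a and Mtor did not pass the threshold.

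**Figure D5:**
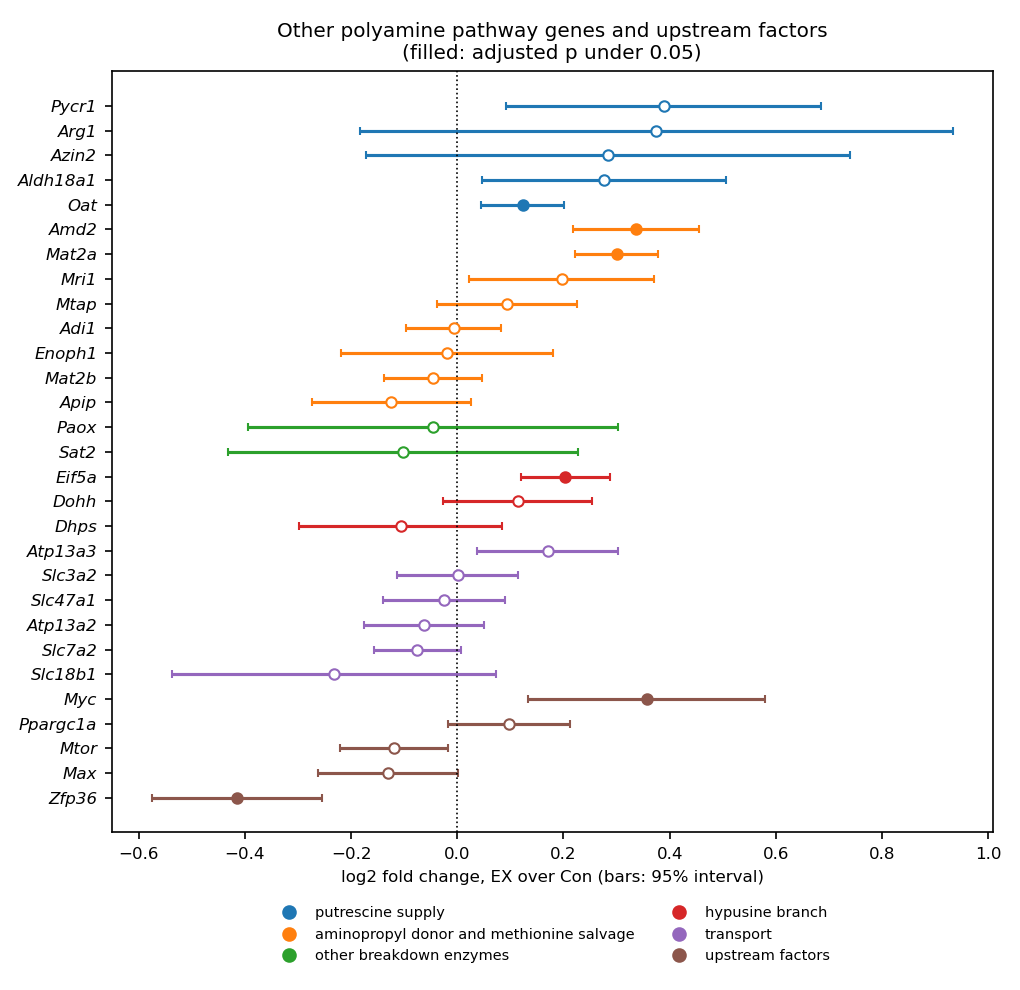
Log2 fold change with 95% interval for the 24 other pathway genes tested and 5 upstream factors, coloured by their role, where filled points have an adjusted p-value under 0.05. Mat2a at 0.30, Amd2 at 0.34, Eif5a at 0.20, Oat at 0.12 and Myc at 0.36 are filled to the right of 0, and Zfp36 at -0.42 to the left.

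For the enzymes at committed steps, the genes with the most similar profile were found by the root mean square difference of centred log2 CPM over the 6 libraries, among 10874 other genes. For Amd1 these were Pgk1 (difference 0.023), Rpia (0.035) and Pvalb (0.040), the last of which is also among the fast fibre genes above, beside a median of 0.224 over all genes. For Smox they were Tuba4a (0.022), Eno1 (0.022), whose counts were not whole in 5 of the 6 libraries, and Jun (0.032), beside a median of 0.258. Odc1 was most similar to Hars2 (0.014), Scp2 (0.017) and Mapre1 (0.018), and Sat1 to Rb1cc1, Opa1 and Pnpla8 (0.016, 0.016 and 0.017). These are descriptions of 6 points in 2 groups.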

How the data were processed

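RNA of hind leg muscle, from mice perfused with PBS, was sequenced in 3 Con and 3 EX libraries. The authors extracted total RNA with TRIzol, sequenced 150 bp paired-end libraries (DNBseq), removed low-quality reads and matched the rest to GRCm39 with HISAT. The submitters' processing notes name GRCm38.p6, cutadapt, featureCounts and MultiQC instead. The deposited table gives estimated counts (not normalized), FPKM and TPM for each gene and library, the latter pair normalized by the authors, and 6 columns of group means that were not used. Totals ran from 13845362 to 16240431 counts per library, of which the 20 most abundant genes took 30.1% to 32.5%. Between 4.18% and 4.44% of the values of a library were not whole.

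Estimated counts were rounded and tested with edgeR 4.0.16 (TMM, glmQLFit, glmQLFTest) in R 4.3.3 on genes whose mean FPKM reached 1, at an adjusted p-value under 0.05. Alternatives used DESeq2 1.42.0 and limma 3.58.1 on log2(FPKM + 0.1), log2(FPKM + 1) and log2(TPM + 0.1). A pseudocount shrinks fold changes of low genes. These fits also took FPKM and TPM without the TMM factors, which were 1.011 to 1.027 in Con and 0.971 to 0.988 in EX. The median log2 fold change of all genes was -0.056, -0.049 and -0.091, in the order given. What moved it was not tested. The tests were checked on simulated counts. Standard errors follow from edgeR's F statistic. Pathway genes named are those called and close relatives, and similar genes are the 3 nearest. Values of genes that missed the filter come from a fit without one. Proteins were not compared here, sequences were aligned with Biopython 1.88, and TATAA was chosen after the sequences were seen. A listed upstream factor is not reported here. Members and lists were chosen with earlier results of these data known. Replicate libraries were treated as separate mice, which the paper does not state. Pairs of one group differed by more than counting noise (chi-square per degree of freedom 1.78 to 4.18). That cannot tell separate mice from pools or from pieces of shared tissue. The common biological coefficient of variation in edgeR was 0.033.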

Additional observations from a re-analysis of the deposited data

How the results depend on the processing

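Smox, Amd1 and Sms kept their direction and stayed past the threshold under all 18 alternatives, with log2 fold changes from 0.39 to 0.49, from 0.31 to 0.42 and from 0.21 to 0.31. Oaz2 lost its call under 5 and Odc1 gained one under 1. Leaving out 1 library moved Sat1 between -0.060 and 0.015, and Azin1 between -0.092 and 0.022. For Sat1 the value was 0.015, 0.0024 and 0.0013 without Con replicate 2, Con replicate 3 and EX replicate 2, for Azin1 0.019 and 0.022 without Con replicate 3 and EX replicate 2, and for Oaz1 -0.030 with limma on TPM. The ratio of Odc1 to Oaz1 ranged from -0.014 (without Con replicate 1) to 0.11 when 1 library was left out. Over the fits that left out 1 library, 3 to 5 of the 9 genes were called, beside 1344 to 1857 of the 10883 genes tested.

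Over all genes, the main test called 991 higher and 958 lower. DESeq2 called 1228 genes, 643 higher and 585 lower. With limma on FPKM, 411 were higher with either pseudocount, and 1037 lower with 0.1. With limma on TPM, 340 were higher and 1684 lower, and 1 of the 9 genes, Srm, was lower. With library totals without the 20 most abundant genes, chosen after seeing the data as was the sum of Amd1 and Amd2, 772 were higher and 1259 lower. Of the other pathway genes, limma on log2(FPKM + 0.1) called 2, 1 higher and 1 lower, limma on log2(FPKM + 1) called 2 higher and 1 lower, and limma on TPM 1 higher and 2 lower. Without a filter, 1 pathway gene was lower, Mat1a, known from liver. The cause was not tested.

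With the replicate block, 1782 genes were called and the same 4 of the 9 genes, at 0.48 for Smox. Libraries of the same number share only a number: their deviations correlated at -0.084 to -0.052, and 0 of 6 samples correlated best with its own number. Depth limits Srm most, at 110 to 128 counts.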
